A study of Mus musculus with 26 samples.

Results

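The transcripts described here are 10 genes of NF-κB signaling in cultured murine lung cancer cells. They were taken from the deposited table by gene symbol, with letter case ignored, and make up 10 of its 55391 gene rows. The set was chosen with earlier results of these data known, so its counts against all genes are a description and not independent support. Nfkb1, Nfkb2, Rela and Relb encode subunits of the NF-κB transcription factor, Nfkbia, Nfkbie and Nfkbiz encode proteins of the IκB family, Tnfaip3 and Birc3 encode ubiquitin-editing regulators of the pathway, and Icam1 encodes an adhesion molecule. RNA sequencing covered the cell lines EA1, EA2 and EA3, which were isolated from lung tumors of C57BL/6 mice and are driven by the EML4-ALK fusion kinase. The study derives EA1 from a mouse with wild-type Trp53, and EA2 and EA3 from mice that lacked it. Each line received 100 nM alectinib, an inhibitor of the ALK kinase, or 0.1% DMSO as the solvent control, and RNA was collected on days 1, 2, 3 and 5. The comparison asks how these genes change in the cancer cells themselves when the driver kinase is inhibited. With 1 library per line, treatment and day there were 24 libraries in 6 groups of 4, and the 4 days of a group stand in for replicates. The p-values for alectinib therefore measure how the ratio of alectinib to DMSO varies between days of 1 culture series per line. That spread also holds any change of the ratio over the culture. It is 1 estimate per gene shared by the lines, so a standard error is not the spread of its own line alone. The p-values between lines in DMSO measure the spread of levels between days. Each genotype is represented by 1 or 2 lines.

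NF-κB subunits form pairs that are held in the cytoplasm by IκB proteins until IκB kinase marks the inhibitor for degradation. The released pairs then activate genes that include the pathway's own inhibitors, among them IκBα (Nfkbia), IκBε (Nfkbie) and the deubiquitinase A20 (Tnfaip3), and this feedback ends the response. In lung epithelium the pathway is known for driving chemokines, adhesion molecules and survival factors during infection and injury. The mRNA level of a subunit does not report how much of it is in the nucleus, which was not measured here.

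The promoters of 4 members whose level changed in at least 1 line are printed first, because 3 of them carry matches to the κB consensus, the sequence that NF-κB binds, and the fourth does not. Each run has 300 bases, 250 before and 50 from the RefSeq start site of GRCm38.p6, is read 5′ to 3′ on the strand of the gene, and shows matches on either strand in capitals.
Nfkbia, chr12:55492598-55492897, minus strand: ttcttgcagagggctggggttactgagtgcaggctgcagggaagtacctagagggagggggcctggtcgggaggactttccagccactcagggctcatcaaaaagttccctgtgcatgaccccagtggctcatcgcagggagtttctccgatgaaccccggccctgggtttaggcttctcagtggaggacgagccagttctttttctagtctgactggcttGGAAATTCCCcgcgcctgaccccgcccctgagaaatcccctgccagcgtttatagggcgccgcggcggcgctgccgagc
Nfkbie, chr17:45555450-45555749, plus strand: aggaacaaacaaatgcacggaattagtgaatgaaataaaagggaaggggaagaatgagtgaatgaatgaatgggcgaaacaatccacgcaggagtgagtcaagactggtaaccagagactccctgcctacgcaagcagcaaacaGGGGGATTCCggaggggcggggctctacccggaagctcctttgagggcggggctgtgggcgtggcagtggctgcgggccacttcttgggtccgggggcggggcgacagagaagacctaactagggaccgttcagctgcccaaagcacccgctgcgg
Tnfaip3, chr10:19015361-19015660, minus strand: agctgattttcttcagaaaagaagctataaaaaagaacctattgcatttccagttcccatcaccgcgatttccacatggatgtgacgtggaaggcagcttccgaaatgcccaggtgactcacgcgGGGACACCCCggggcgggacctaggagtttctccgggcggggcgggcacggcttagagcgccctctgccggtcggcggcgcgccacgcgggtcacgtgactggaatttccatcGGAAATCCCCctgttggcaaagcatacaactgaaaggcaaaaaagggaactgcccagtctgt
Birc3, chr9:7873121-7873420, minus strand: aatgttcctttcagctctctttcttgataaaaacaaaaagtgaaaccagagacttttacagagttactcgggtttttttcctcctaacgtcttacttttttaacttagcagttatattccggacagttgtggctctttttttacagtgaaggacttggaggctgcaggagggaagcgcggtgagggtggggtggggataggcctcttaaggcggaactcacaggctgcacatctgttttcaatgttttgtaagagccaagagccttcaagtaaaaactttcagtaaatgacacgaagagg
With the start site counted as 0, the match began at -29 in Nfkbia, at -106 in Nfkbie and at -125 and -12 in Tnfaip3. Tnfaip3 has a second RefSeq window at chr10:19011914-19012213, which held no match and is not shown. RefSeq windows were present for 7 of the 10 members, and none was available for Nfkb1, Relb and Nfkbiz. At least 1 match was found in 4 of the 7, in Nfkb2 besides the 3 shown, where matches at -39 and -38 of the first of 3 windows overlap. The gene bodies lie at chr12:55489410-55492647, chr17:45555703-45563169, chr10:19000910-19015657 and chr9:7848699-7873186 in GENCODE's annotation of the same build (mm10), so each window spans the annotated 5′ end of its gene. The windows of Rela, Birc3 and Icam1 held none. The 4 shown were picked with their results known. Icam1, not shown, rose in EA1 and EA3 without a match, while Nfkb2 had matches and did not pass in any line. Among all 27025 genes with such a window, 9.55% held a match. These are matches of letters only. A match had to fit GGGRNNYYCC or its reverse complement without a mismatch, where R is A or G, Y is C or T and N is any base. Binding was not measured, and the absence of a match concerns only this window and this strict pattern.

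Library totals lay between 5780062 and 11732401 counts, with a median of 9252878. Levels are given as CPM, the reads of a gene per 1000000 reads of its library after scaling with edgeR's TMM factors. Up to 3 reads were treated as not detected, a floor for counting error alone. The 6 epithelial markers listed summed to between 568 and 9310 CPM, and Krt18 was present in every group. Epcam had means of 132 and 125 CPM in DMSO and alectinib in EA3, of 1.35 and 6.54 CPM in EA1, and of 0.494 CPM and 0 in EA2. Of the 7 leukocyte markers Cd68 gave most of a summed level of 1.64 to 94.3 CPM, while the mean level of Ptprc did not exceed 0.198 CPM and that of Cd3e 0.0412 CPM in any group. The 4 endothelial markers summed to at most 9.39 CPM. Epithelial markers moved in both directions with treatment. The mean of Krt18 was 1854 (EA1), 1618 (EA2) and 1641 CPM (EA3) in DMSO against 676, 491 and 779 CPM in alectinib, while that of Cdh1 was 547, 65.3 and 645 CPM against 665, 189.8 and 1035 CPM. The epithelial sum was 4677 to 9310 CPM in DMSO against 3284 to 5421 CPM in alectinib in EA1, where the groups overlapped. In EA2 it was 1811 to 2695 CPM in DMSO against 568 to 1171 CPM in alectinib, and in EA3 the groups overlapped, at 5239 to 7706 against 3466 to 8031 CPM. The summed level of the 7 fibroblast markers was 9.09 to 44.1 CPM in DMSO cultures of EA1 and 126 to 478 CPM with alectinib. The ranges were 58.4 to 71.5 against 122 to 239.8 CPM in EA2 and 10.2 to 20.2 against 84.7 to 274 CPM in EA3, with Lum at 0 in all DMSO groups. The part of these changes in the results that follow was not tested, and in bulk RNA a change in the number of cells of a kind and a change in RNA per cell cannot be told apart. A further 2 libraries, labelled EA3 and day 7, correlated with EA2 libraries at 0.943 or more and with EA3 libraries at 0.890 or less. They thus go against their label and were left out of the values below.

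With alectinib, members of this set were higher or did not pass the test, and no member passed as lower in any line. In EA1, Tnfaip3 and Icam1 rose, 2 of 10 members, against a background of 19.0% of all 14264 genes tested that were higher in this line and 14.6% that were lower. In EA2, 5 of 10 rose, namely Nfkb1, Nfkbia, Nfkbiz, Tnfaip3 and Birc3, where 13.0% of all genes were higher and 11.3% lower. In EA3, 5 of 10 rose as well, namely Nfkb1, Nfkbie, Tnfaip3, Birc3 and Icam1, where 17.5% of all genes were higher and 15.1% lower. A gene passed at an adjusted p under 0.05 in edgeR's quasi-likelihood fit, in which the libraries of 1 line and day formed a block. Tnfaip3 was the only member past the threshold in all 3 lines, and Nfkb2, Rela and Relb passed in none. The median log2 fold change over the 10 members reached 0.51 (EA1), 0.56 (EA2) and 0.58 (EA3), compared with 0.07, 0.00 and 0.07 over all tested genes. These counts depended on single days. In EA1 the count was 1 without day 2 or day 3, and in EA2 it was 3 without day 1, day 3 or day 5. With EA2 fitted alone it was 8, as Nfkb2, Rela and Icam1 passed besides. In EA3 it was 5 without any 1 of the days.

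**Figure D1:**
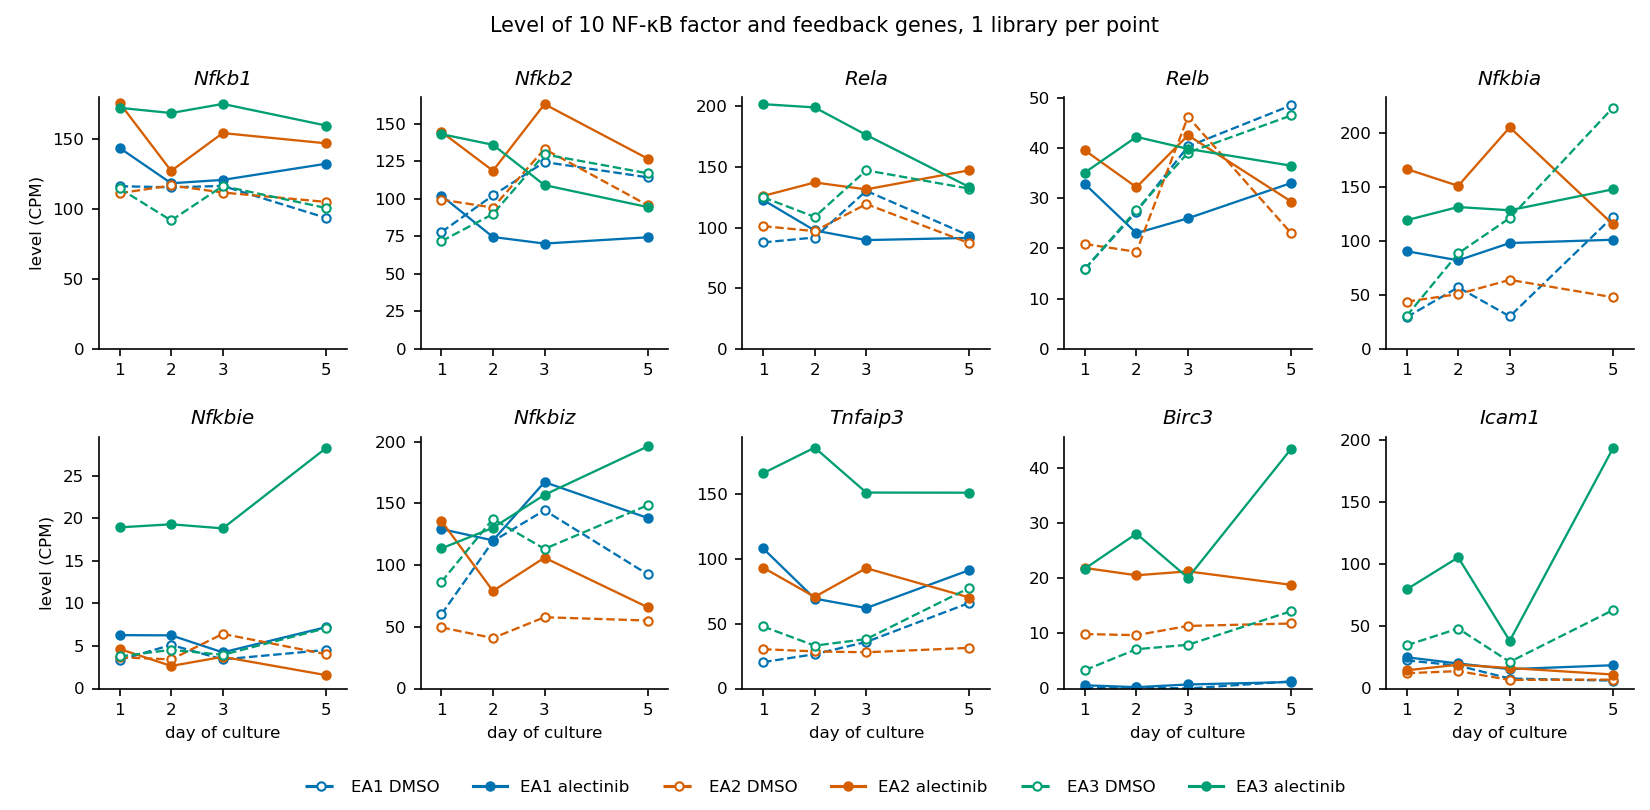
Level of each of the 10 members (CPM, linear axes from 0) against day of culture, with 1 library per point, DMSO as open circles on dashed lines and alectinib as filled circles on solid lines, coloured by line. Nfkbie lies between 18.8 and 28.2 CPM in the EA3 alectinib cultures and at or below 7.21 CPM in every other group, and Birc3 stays at or below 1.29 CPM in EA1.

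**Figure D2:**
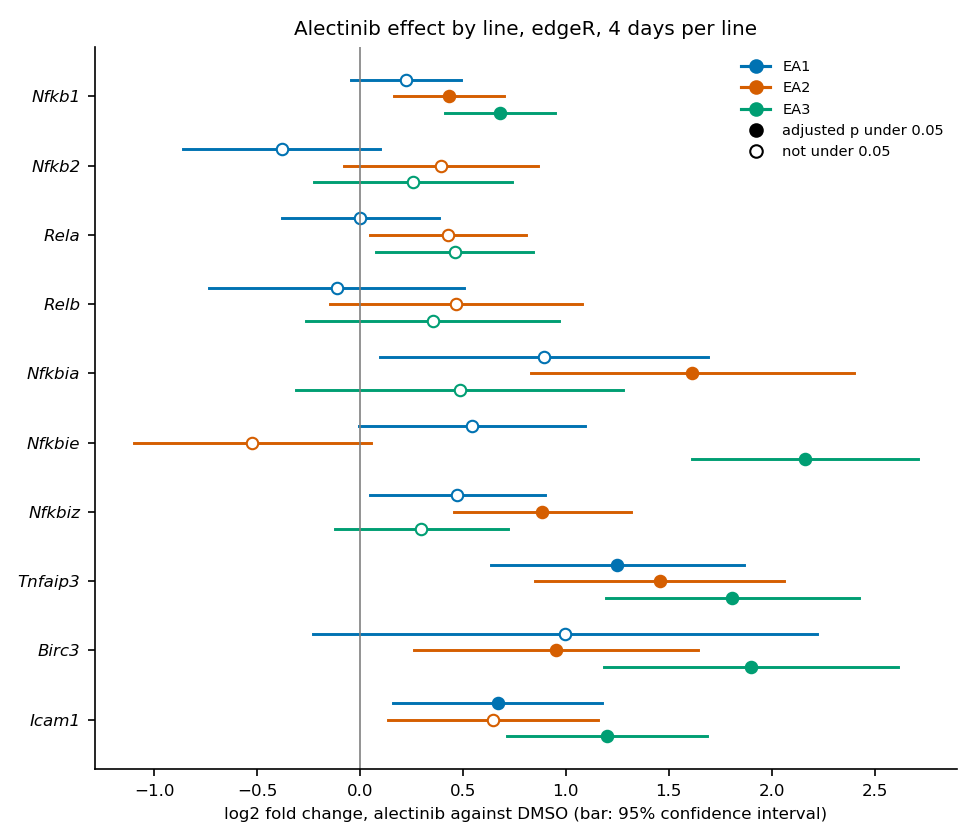
Log2 fold change of alectinib against DMSO for each member in EA1, EA2 and EA3 from edgeR (points) with its 95% confidence interval (bars), filled where the adjusted p was under 0.05. The intervals of Tnfaip3 lie above 0 in the 3 lines, those of Nfkb2 and Relb include 0 in the 3 lines, and for Nfkbie the interval of EA3 (1.61 to 2.71) does not overlap those of EA1 and EA2.

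Among the subunits, Nfkb1, which encodes the p105 precursor of p50, had groups that were apart in EA2 and EA3. In EA1 its level was 116, 115, 116 and 93.5 CPM in DMSO on days 1, 2, 3 and 5 and 143, 118, 120.5 and 132 CPM in alectinib. In EA2 it was 111, 116, 112 and 105 CPM in DMSO and 175, 127, 154 and 147 CPM in alectinib, and in EA3 it was 114, 91.5, 116 and 100.5 CPM and 172, 168, 175 and 159 CPM. All 4 alectinib libraries lay above all 4 DMSO libraries in EA2 and EA3. In EA1 they did so narrowly, and with the scale set over all 26 libraries the EA1 groups overlapped, at 122, 120.0, 125 and 95.2 CPM in DMSO against 142, 116, 120.2 and 131 CPM. By edgeR's quasi-likelihood test Nfkb1 rose in EA3, where the log2 fold change was 0.68 ± 0.12 (SE, adjusted p = 0.00124), and in EA2, with 0.43 ± 0.12 (SE, adjusted p = 0.0211). In EA1 the value was 0.22 ± 0.12 (SE, adjusted p = 0.181) and did not pass, and it was 0.09 without day 5. The EA2 call was lost when a day was left out, with edgeR adjusted p-values of 0.151 without day 1, 0.102 without day 3 and 0.0916 without day 5, and also without the filter on low counts, with 0.172.

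Rela encodes p65, the main transactivating subunit of the canonical pathway. EA1 had 87.8 to 130.3 CPM in DMSO and 89.7 to 123 CPM in alectinib, EA2 87.1 to 119 against 126 to 147 CPM, and EA3 109 to 147 against 133 to 202 CPM. Only the EA2 groups did not overlap. The edgeR log2 fold changes were 0.00 in EA1, where other settings gave values from -0.16 to 0.15, 0.43 ± 0.18 (SE, adjusted p = 0.0966) in EA2 and 0.46 ± 0.18 (SE, adjusted p = 0.0618) in EA3, so that Rela did not pass in any line in this fit. It passed in EA2 with the line fitted alone (edgeR adjusted p = 0.0416) and in EA3 without the day block, with library size alone and with at least 10 counts in every library (edgeR adjusted p = 0.0286, 0.0138 and 0.0487). The EA3 value was smaller without day 1 (0.38, edgeR adjusted p = 0.196) and without day 2 (0.28, edgeR adjusted p = 0.387). In the EA3 series the level in alectinib was 202 CPM on day 1 and 133 CPM on day 5.

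Nfkb2 and Relb encode p100 and RelB, the pair of the noncanonical pathway. Nfkb2 lay between 77.8 and 125 CPM in DMSO and between 70.2 and 102 CPM in alectinib in EA1, and its edgeR log2 fold changes of -0.38 ± 0.22 (SE, adjusted p = 0.201) in EA1, 0.39 ± 0.22 (SE, adjusted p = 0.219) in EA2 and 0.26 ± 0.22 (SE, adjusted p = 0.399) in EA3 did not pass. Without day 1 it was lower in EA1, at -0.63 with an edgeR adjusted p of 0.0299, and with EA2 fitted alone it was higher in EA2, with 0.0288. Its exons share 11.6% of their bases with a noncoding gene and 6.52% with Psd, both on the other strand, while the sources used here do not name the counted strand, so these values are uncertain to that extent. Relb was the lowest of the subunits in CPM, from 15.9 to 48.5 over the 24 libraries, with edgeR log2 fold changes of -0.11 ± 0.29 (SE, adjusted p = 0.788), 0.47 ± 0.29 (SE, adjusted p = 0.264) and 0.35 ± 0.29 (SE, adjusted p = 0.367) in EA1, EA2 and EA3, none past the threshold. The 2 genes had the most similar daily ratios of any 2 members other than Birc3, with a Pearson correlation of 0.905 over the 12 pairs of alectinib and DMSO libraries, which share lines and normalization.

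Each of the 3 IκB genes passed the test in 1 line, Nfkbia and Nfkbiz in EA2 and Nfkbie in EA3. The effect differed between lines for Nfkbie only, and for Nfkbia and Nfkbiz it did not (edgeR adjusted p = 0.3085 and 0.3295 between lines). Nfkbia, which encodes IκBα, the inhibitor that is resynthesised after activation, had 43.7, 50.7, 63.9 and 47.8 CPM in the DMSO cultures of EA2 on days 1, 2, 3 and 5 and 166, 150.9, 205 and 115 CPM with alectinib. All EA2 alectinib libraries lay above all EA2 DMSO libraries, and the gene rose with an edgeR log2 fold change of 1.61 ± 0.36 (SE, adjusted p = 0.00558). In EA1 the levels were 29.3, 56.9, 30.0 and 122 CPM in DMSO and 90.4, 81.9, 98.0 and 101 CPM in alectinib, and in EA3 they were 30.4, 88.4, 121 and 223 CPM and 119, 131, 128 and 148 CPM. In both lines the alectinib level varied little over the days, by at most 1.24-fold, while the DMSO level was 4.17-fold higher on day 5 than on day 1 in EA1 and 7.34-fold higher in EA3. The edgeR log2 fold changes over the 4 days were 0.89 ± 0.37 (SE, adjusted p = 0.0784) in EA1 and 0.48 ± 0.37 (SE, adjusted p = 0.338) in EA3, neither past the threshold. The EA1 value passed without day 5 (1.24, edgeR adjusted p = 0.0212), without the filter on low counts (edgeR adjusted p = 0.000633) and with DESeq2 (adjusted p = 0.0402), and was smaller without day 1 (0.64, edgeR adjusted p = 0.176) and without day 3 (0.58, edgeR adjusted p = 0.391).

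Nfkbie, which encodes IκBε, a later feedback inhibitor, rose in EA3. Its EA3 levels were 3.77, 4.55, 3.96 and 7.08 CPM in DMSO and 18.9, 19.3, 18.8 and 28.2 CPM in alectinib on days 1, 2, 3 and 5, which is 3.99-fold to 5.03-fold higher on each day. The EA1 levels were 3.35, 5.12, 3.42 and 4.52 CPM and 6.27, 6.25, 4.25 and 7.21 CPM, and those of EA2 3.67, 3.42, 6.42 and 4.04 CPM and 4.64, 2.65, 3.72 and 1.57 CPM. Only in EA3 were the groups apart, and there the edgeR log2 fold change was 2.16 ± 0.26 (SE, adjusted p = 6.46e-05). In EA1 it was 0.54 ± 0.25 (SE, adjusted p = 0.114) and in EA2 -0.52 ± 0.27 (SE, adjusted p = 0.178), with the level in EA2 higher on 1 of 4 days and lower on 3. The EA2 value was -0.84 without day 1 and -0.27 without day 5, neither past the threshold, and the EA1 and EA2 values rest on 14 to 86 reads per library.

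Whether alectinib acted differently in the 3 lines was tested on 2 degrees of freedom. Nfkbie was the only 1 of 10 members that passed, with an edgeR adjusted p of 0.00248, where 6.84% of all tested genes passed. The effect in EA3 exceeded that in EA2 by 2.68 (95% confidence interval 1.89 to 3.47) on the log2 scale (edgeR, adjusted p = 0.00199) and that in EA1 by 1.62 (95% confidence interval 0.85 to 2.38) (edgeR, adjusted p = 0.0386). EA2 and EA1 differed by -1.07 (95% confidence interval -1.86 to -0.27), which did not pass (edgeR, adjusted p = 0.0996). Without day 3 the test over the 3 lines gave an edgeR adjusted p of 0.0529, and the difference between EA3 and EA1, at 1.53 to 1.76 when each day was left out, had adjusted p-values of 0.061 to 0.29, and 0.0675 without the day block (edgeR). Adding the 2 libraries labelled EA3 day 7 to EA3 gave an edgeR adjusted p of 0.225 for the 3 lines. The other 9 members had adjusted p-values of 0.219 to 0.579 between lines by edgeR, and Nfkbia passed at 0.00348 without the filter on low counts. For Nfkbia the effect in EA3 minus that in EA2 was -1.13 (95% confidence interval -2.24 to -0.02) and for Birc3 it was 0.95 (95% confidence interval -0.03 to 1.93), and neither difference passed.

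Nfkbiz encodes IκBζ, a nuclear IκB protein that acts on secondary response genes. In EA2 its level was 49.5, 40.9, 57.7 and 55.1 CPM in DMSO and 136, 79.0, 106 and 65.9 CPM in alectinib, with no overlap, and it rose by an edgeR log2 fold change of 0.89 ± 0.20 (SE, adjusted p = 0.0057). EA1 spanned 60.0 to 144 CPM in DMSO against 120.0 to 167 CPM in alectinib, and EA3 86.3 to 148 against 114 to 196 CPM. The groups overlapped in both lines, with log2 fold changes of 0.47 ± 0.20 (SE, adjusted p = 0.0798) in EA1 and 0.30 ± 0.20 (SE, adjusted p = 0.265) in EA3 by edgeR, and the EA1 value passed with library size alone (edgeR adjusted p = 0.0474) and was 0.27 without day 1 (edgeR adjusted p = 0.325).

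Tnfaip3, which encodes A20, the enzyme that removes activating ubiquitin chains from the pathway's adaptors, rose in every line. In EA1 its level was 20.3, 26.4, 35.8 and 65.9 CPM in DMSO and 108, 69.2, 61.9 and 91.2 CPM in alectinib on days 1, 2, 3 and 5. In EA2 it was 30.3, 28.5, 27.9 and 31.3 CPM and 93.0, 70.5, 92.6 and 70.0 CPM, and in EA3 47.7, 33.0, 38.0 and 77.4 CPM and 166, 185, 150.8 and 150.7 CPM. The alectinib library was the higher on 4 of 4 days in each line, and the groups were apart in EA2 and EA3, while in EA1 the day 5 DMSO library lay above 1 alectinib library. The log2 fold changes by edgeR's quasi-likelihood test were 1.25 ± 0.29 (SE, adjusted p = 0.00486) in EA1, 1.46 ± 0.28 (SE, adjusted p = 0.00211) in EA2 and 1.81 ± 0.28 (SE, adjusted p = 0.000449) in EA3. These calls held in every setting that was tried. The EA3 alectinib group stood apart from all other groups, with a mean of 163 ± 16.4 CPM (SD, n = 4 days), and the EA1 and EA2 alectinib groups, at 82.5 ± 20.9 and 81.5 ± 13.0 CPM, did not differ beyond their spread.

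Birc3 encodes cIAP2, a ubiquitin ligase of TNF receptor complexes. It was close to the floor of detection in EA1, with 1, 2, 0 and 10 reads in the DMSO libraries of days 1, 2, 3 and 5 and 6, 2, 7 and 14 in the alectinib libraries, so that no fold is given for most of its days. In EA2 the level was 9.85, 9.66, 11.3 and 11.77 CPM in DMSO and 21.8, 20.5, 21.2 and 18.8 CPM in alectinib, and in EA3 it was 3.32, 7.11, 7.92 and 14.0 CPM and 21.7, 28.0, 20.04 and 43.4 CPM. The groups did not overlap in either line, and the EA2 values varied little within a treatment, with means of 10.7 ± 1.05 and 20.6 ± 1.32 CPM (SD, n = 4 days). Birc3 rose in EA3 with an edgeR log2 fold change of 1.90 ± 0.33 (SE, adjusted p = 0.000908) and in EA2 with 0.95 ± 0.32 (SE, adjusted p = 0.045), and in EA1 the value of 0.99 ± 0.57 (SE, adjusted p = 0.192) did not pass and was 0.44 without day 3 and 2.09 without day 5. The EA2 call was lost without any 1 of the 4 days, with edgeR adjusted p-values of 0.0537 to 0.153, and without the day block, with 0.148, and with library size alone, with 0.056.

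Icam1, an adhesion receptor for leukocyte integrins and a transcriptional target of the pathway, rose in EA1 and EA3. In EA3 its level was 34.7, 48.2, 21.4 and 62.9 CPM in DMSO and 79.6, 105, 38.3 and 193 CPM in alectinib on days 1, 2, 3 and 5. Both series dipped on day 3 and were highest on day 5, so that the groups overlapped although the ratio on each day was 1.79-fold to 3.06-fold. EA1 had 22.6, 18.4, 8.02 and 6.33 CPM and 25.1, 20.1, 15.5 and 18.7 CPM, and EA2 had 12.3, 14.0, 6.92 and 7.13 CPM and 14.6, 19.1, 16.5 and 11.2 CPM. The alectinib library was the higher on 4 of 4 days in each line, and in EA1 and EA2 the DMSO level was lower on days 3 and 5 than on days 1 and 2. By edgeR Icam1 rose in EA3 at a log2 value of 1.20 ± 0.23 (SE, adjusted p = 0.00146) and in EA1 with 0.67 ± 0.24 (SE, adjusted p = 0.0421), and in EA2 the value was 0.65 ± 0.24 (SE, adjusted p = 0.0634). The EA2 value passed with DESeq2 (adjusted p = 0.0488), without the filter on low counts (edgeR adjusted p = 0.0489) and with the line fitted alone (edgeR adjusted p = 0.0486). The EA1 call was lost without day 2 (edgeR adjusted p = 0.0661), without day 3 (log2 fold change 0.54, edgeR adjusted p = 0.182), without day 5 (0.35, edgeR adjusted p = 0.276) and without the day block (edgeR adjusted p = 0.371), and also without the filter, with all 26 libraries and with the line fitted alone (edgeR adjusted p = 0.0539, 0.0764 and 0.124). The exons of Icam1 share 11.7% of their bases with an antisense gene, with the same uncertainty as for Nfkb2.

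On day 1 every member with over 3 reads in both libraries was higher with alectinib, 9 of 9 in EA1 and 10 of 10 in EA2 and EA3, compared with 51.7% to 52.0% of all such genes. In EA1 the number was 7 of 9 on day 2, 6 of 9 on day 3 and 5 of 10 on day 5, against 52.5%, 52.8% and 49.7% of all such genes. The EA1 count of day 5 is thus at the background. EA2 had 9, 8 and 9 of 10 on these days, and EA3 had 9, 9 and 7. The shares of all such genes were 50.3%, 50.2% and 54.0% in EA2 and 49.7%, 49.9% and 51.7% in EA3. With the scale set over all 26 libraries, Nfkb1 in EA1 was lower on days 2 and 3, as were Nfkbiz in EA1 on day 2 and Rela in EA3 on day 5. The median log2 ratio over the members on day 1 reached 0.91 (EA1), 0.79 (EA2) and 1.17 (EA3), against 0.22, 0.57 and 0.53 on day 5. Over all such genes the median was 0.03 in each line on day 1 and -0.007, 0.062 and 0.038 on day 5. For Relb, the log2 ratio was 1.04, 0.92 and 1.14 on day 1 in EA1, EA2 and EA3 and -0.55, 0.35 and -0.35 on day 5. Its DMSO level was 3.05-fold higher on day 5 than on day 1 in EA1 and 2.93-fold higher in EA3, while the alectinib level differed by 1.01-fold and 1.04-fold. For Tnfaip3 in EA1 the DMSO level on day 5 was 3.25-fold that of day 1 and the alectinib level 0.846-fold. Birc3 in EA3 was higher on day 5 in both, by 4.22-fold in DMSO and 2.00-fold in alectinib. The ratio of the highest to the lowest day was larger in DMSO than in alectinib for 8 of the 9 members with enough reads in EA1, for 5 of 10 in EA2 and for 7 of 10 in EA3. Among all tested genes with enough reads this was so for 83.9%, 36.3% and 78.2%, so the counts in EA1 and EA3 are near or below the background.

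A slope of the treatment effect on log2(day) was fitted as well, from 4 pairs of libraries per line and no repeated day. By edgeR's quasi-likelihood test 0 members passed in EA1, EA2 and EA3. At an unadjusted p under 0.05 there were 5, 2 and 3 members, and DESeq2 called 1, 0 and 2. Among all genes edgeR called 3, 0 and 7 and DESeq2 246, 60 and 349, and 11.5%, 6.03% and 13.2% had an unadjusted p under 0.05. The steepest member was Nfkbia in EA3, whose effect changed by -1.10 (95% confidence interval -1.68 to -0.52) per doubling of days on the log2 scale (edgeR adjusted p = 0.125). Relb in EA1 had -0.71 (95% confidence interval -1.15 to -0.27) and Tnfaip3 in EA1 -0.86 (95% confidence interval -1.36 to -0.36), while the slope of Icam1 in EA1 was positive, at 0.62 (95% confidence interval 0.14 to 1.11).

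**Figure D3:**
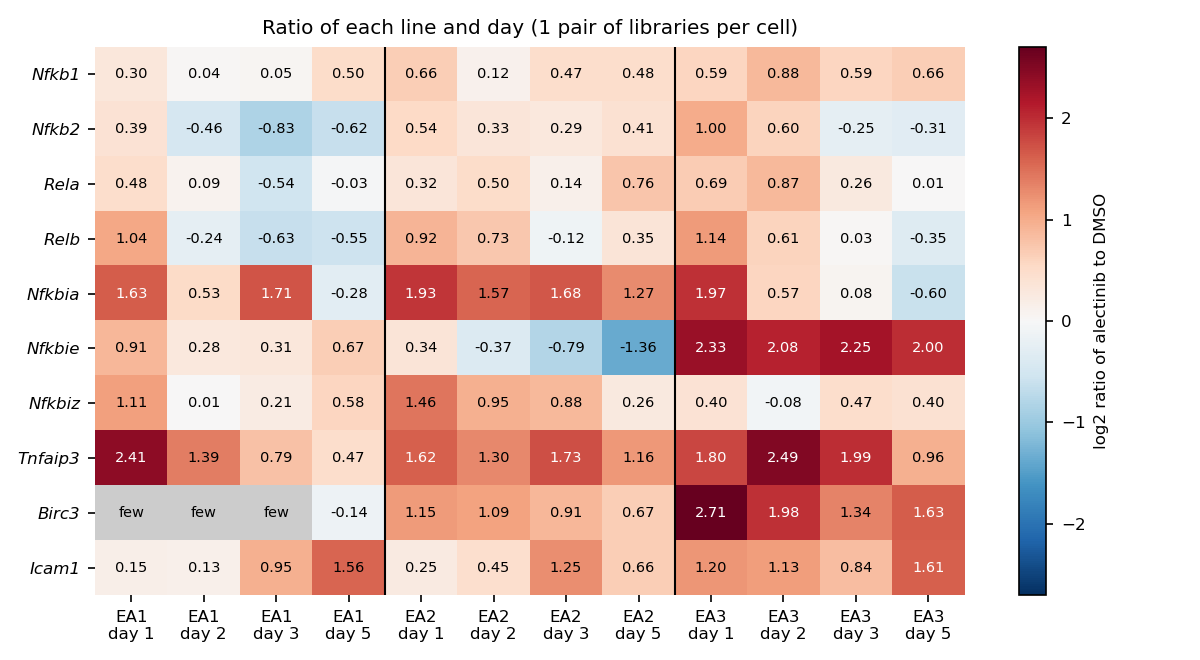
Log2 ratio of alectinib to DMSO for each member (rows) in each line and day (columns), from the CPM of 1 pair of libraries per cell, with red for higher and blue for lower in alectinib. Cells marked "few" had 3 reads or fewer in a library. The day 1 columns are above 0 in every cell that has a value, the Nfkbie row is near 2 in EA3 only, and the Tnfaip3 row is above 0 in all 12 columns.

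Levels of different genes were compared per length, as TPM, the share of a gene's reads per exon base (GENCODE) out of 1000000. In DMSO, Nfkbia and Rela had the highest means in each line, with 113 and 104 TPM in EA1, 102 and 105 TPM in EA2, and 208 and 127 TPM in EA3. Their order within a line is inside the spread of the days. Nfkbia ranged over the days from 60.7 to 217 TPM in EA1 and 62.7 to 366 TPM in EA3. These ranges overlapped those of Nfkb2, at 58.2 to 88.5 and 51.9 to 97.6 TPM, and Rela overlapped Nfkb2 in each line. Nfkb2 lay at 67.2 to 73.8 TPM, Nfkbiz at 32.4 to 71.3 TPM, Nfkb1 at 26.7 to 29.4 TPM and Icam1 at 7.4 to 27.7 TPM. The means of Nfkbiz and Nfkb2 in EA1 and EA3, and those of Icam1 and Nfkb1 in EA3, were inside the spread of the days. Nfkbie and Birc3 had the lowest means, at 4.25 to 4.67 TPM and 0.237 to 6.8 TPM. Over the days, Nfkbie in EA1 and EA2 and Birc3 in EA2 overlapped the range of Icam1, which was 4.15 to 17.8 TPM in EA1 and 5.02 to 9.72 TPM in EA2. With alectinib Nfkbia had the highest mean of the members in each line, at 193, 323 and 289.8 TPM.

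The 12 DMSO libraries were used to compare the lines without inhibitor, and 3 members differed. Birc3 was higher in EA2 than in EA1 by an edgeR log2 fold change of 4.74 ± 0.73 (SE, adjusted p = 0.000258) and in EA3 than in EA1 by 4.37 ± 0.73 (SE, adjusted p = 0.000683), both of which rest on 0 to 10 reads per EA1 library. Without day 5 these values were 6.36 and 5.64. Birc3 passed the filter on low counts only through EA2 and EA3, so this test is not independent of the filter. The size of these values is not resolved, and the counts below include Birc3 with this limit. Icam1 was higher in EA3 than in EA1 by 1.59 ± 0.44 (SE, adjusted p = 0.0183) and than in EA2 by 2.10 ± 0.45 (SE, adjusted p = 0.00344) in the same edgeR test. Nfkbiz was lower in EA2 than in EA1, at -1.08 ± 0.27 (SE, adjusted p = 0.00861), and higher in EA3 than in EA2, at 1.29 ± 0.27 (SE, adjusted p = 0.00304), by edgeR. Of the 10 members, 1 was higher and 1 lower in EA2 than in EA1 (14.2% and 15.0% of the 12886 genes tested), 2 were higher and 0 lower in EA3 than in EA1 (12.4% and 9.76%), and 2 were higher and 0 lower in EA3 than in EA2 (14.6% and 11.0%). The comparisons share their DMSO libraries. Leaving out a day ended the call of Icam1 between EA3 and EA1 (edgeR adjusted p = 0.0833 without day 2 and 0.124 without day 5) and the calls of Nfkbiz (edgeR adjusted p = 0.1 without day 2 and 0.0532 without day 3 between EA2 and EA1, and 0.0545 without day 2 between EA3 and EA2). The 4 subunits did not pass in any pair of lines, with edgeR log2 differences of -0.30 to 0.38.

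A list of 101 other genes of the pathway puts these members in context. Of these, 88 passed the filter on low counts, and among them 29 were higher and 8 lower in EA1, 23 higher and 10 lower in EA2, and 26 higher and 8 lower in EA3, with median log2 fold changes of 0.17, 0.18 and 0.26. The shares of all tested genes, against which these and the group counts are read, were 19.0% (EA1), 13.0% (EA2) and 17.5% (EA3) higher and 14.6%, 11.3% and 15.1% lower. Like the members, the list was chosen with earlier results of these data known, so an excess over these shares is not independent support. Levels of the listed genes are means ± SD over the 4 days of a group. The 13 not tested include the ligands Tnf, Lta, Il1b and Tnfsf11, which had at most 5 reads in any library, the ligands Il1a and Ltb, with up to 25 and 105 reads, and Il6, with at most 20 reads. Of the 4 ligands tested, 4 rose in EA1, 0 rose and 1 fell in EA2, and 1 rose in EA3. Il33, an alarmin of epithelial cells, rose in EA1 from 24.1 ± 8.11 CPM in DMSO to 265 ± 146 CPM and fell in EA2 from 83.4 ± 24.9 CPM in DMSO to 12.5 ± 10.5 CPM, with edgeR log2 fold changes of 3.31 (adjusted p = 0.00108) and -2.99 (adjusted p = 0.0033), and the lines differed (edgeR adjusted p = 0.00251, and 0.0514 without day 3). Il18, a cytokine of the interleukin 1 family, rose in EA1 by 3.03 (adjusted p = 0.00118) in the edgeR test, and in EA3 from 0.136 ± 0.11 CPM in DMSO to 5.4 ± 3.31 CPM (edgeR adjusted p = 0.000214), where no DMSO library had more than 2 reads. Among 11 receptors tested, 6 rose and 1 fell in EA1, EA2 had 3 and 1, and EA3 had 4 and 1. The receptor of bacterial lipopeptides Tlr2 rose by 3.28 (adjusted p = 6.44e-05), 2.77 (adjusted p = 0.000314) and 3.62 (adjusted p = 1.85e-05) in EA1, EA2 and EA3 (edgeR), from DMSO means of at most 1.11 CPM.

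Most adaptors, ubiquitin ligases and kinases did not pass the test. Of 22 adaptors and ligases, 3 rose and 1 fell in EA1, EA2 had 4 and 0, and EA3 had 4 and 1. They include Card10, a scaffold of the CARD family, by 1.01 (adjusted p = 0.00643) in EA1 and 0.76 (adjusted p = 0.0327) in EA2 (edgeR). The EA2 call of Card10 was lost without day 1, 2 or 3 and without the day block (edgeR adjusted p = 0.104, 0.0871, 0.0756 and 0.0886). In EA3 Card10 had 0.50 (edgeR adjusted p = 0.125) and passed with library size alone and without day 5 (edgeR adjusted p = 0.04485 and 0.0429). Ticam1, the adaptor TRIF, rose by 1.26 (adjusted p = 0.000878) in EA2 and 0.79 (adjusted p = 0.0115) in EA3 (edgeR). The EA3 call of Ticam1 was lost without day 1 (edgeR adjusted p = 0.0695), without day 2 (0.115) and without the day block (0.0896). Of 7 kinase genes, 1 rose and 1 fell in EA1, EA2 had 2 and 0, and EA3 had 3 and 0. Ikbkg, the regulatory subunit NEMO of the IκB kinase complex, rose in each line, from 77.3 ± 9.37 CPM in DMSO to 217 ± 14.1 CPM in EA1, from 80.3 ± 14.2 CPM in DMSO to 194 ± 47.4 CPM in EA2 and from 44.6 ± 5.88 CPM in DMSO to 99.7 ± 23.1 CPM in EA3, with edgeR log2 fold changes of 1.497 (adjusted p = 1.06e-05), 1.25 (adjusted p = 4.11e-05) and 1.14 (adjusted p = 9.47e-05). The catalytic subunit Ikbkb had -0.24, 0.12 and 0.05 and did not pass. Chuk, the other catalytic subunit, fell in EA1, with an edgeR log2 fold change of -0.66 (adjusted p = 0.00991), or -0.53 with an adjusted p of 0.0593 without day 3, and had 0.28 and -0.05 in EA2 and EA3. Map3k14, the kinase NIK of the noncanonical pathway, had 0.12 and 0.58 in EA1 and EA2 and passed in EA3 at 0.59 (adjusted p = 0.0414) by edgeR, a call lost without day 1, 2 or 3 (edgeR adjusted p = 0.165, 0.107 and 0.147) and without the filter, with all 26 libraries or with the line fitted alone (edgeR adjusted p = 0.15, 0.0993 and 0.0878). The EA2 value passed with DESeq2 (adjusted p = 0.0462) and with the line fitted alone (edgeR adjusted p = 0.0461).

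Of the remaining subunit and IκB genes, Rel, which encodes c-Rel, rose in EA2 from 18.3 ± 1.4 CPM in DMSO to 67.3 ± 18.9 CPM, a log2 fold change of 1.84 (adjusted p = 4.44e-05), and had -0.31 (adjusted p = 0.26) in EA1 and 0.55 (adjusted p = 0.0614) in EA3, and the lines differed (edgeR adjusted p = 0.00248). In EA3 it passed with at least 10 counts in every library, with library size alone, with all 26 libraries and without day 3 (edgeR adjusted p = 0.0495, 0.0225, 0.0193 and 0.044), and was 0.21 without day 2 (edgeR adjusted p = 0.482). Bcl3, a nuclear IκB protein, fell in EA2, with an edgeR log2 fold change of -0.83 (adjusted p = 0.0112) and in EA3, with -0.70 (adjusted p = 0.0186). Both calls depended on single days, with edgeR adjusted p-values of 0.0964 in EA2 without day 3, 0.0938 in EA2 without day 5, 0.0743 in EA3 without day 2 and 0.0616 in EA3 without day 3, and the EA2 call was also lost with the line fitted alone (edgeR adjusted p = 0.0634). Nfkbib had -0.57, 0.15 and -0.17 and did not pass. In EA1 it passed as lower without the filter, without the day block and without day 1 (edgeR adjusted p = 0.0429, 0.0464 and 0.021), and was -0.28 without day 3 (edgeR adjusted p = 0.506). Nfkbid had at most 14 reads in any library and 0 in EA2. Of 13 other genes that restrain the pathway, 0 fell in any line, and 4 (EA1), 3 (EA2) and 5 (EA3) rose. Cyld, a deubiquitinase like A20, rose by 0.94 (adjusted p = 0.00147) in EA2 and 0.91 (adjusted p = 0.00178) in EA3, and by 0.51 (adjusted p = 0.0349) in EA1 (edgeR), where each day left out ended the call (edgeR adjusted p = 0.0554 to 0.148), as did no filter and all 26 libraries (edgeR adjusted p = 0.124 and 0.0745). Zc3h12a, the endoribonuclease Regnase-1, rose by 1.22 (adjusted p = 0.00186) in EA1, 0.73 (adjusted p = 0.0411) in EA2 and 0.73 (adjusted p = 0.0289) in EA3 (edgeR), and the EA3 call was lost without any 1 day (edgeR adjusted p = 0.0543 to 0.0942). The EA2 call was lost without day 1, 2 or 3 (edgeR adjusted p = 0.21, 0.0987 and 0.129), with at least 10 counts in every library, with library size alone, with all 26 libraries and with the line fitted alone (edgeR adjusted p = 0.0509, 0.0653, 0.0513 and 0.0777). Rcan1 rose in EA3 by 0.90 (adjusted p = 0.00159) (edgeR).

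Of 27 transcriptional targets tested, 11 rose and 5 fell in EA1, EA2 had 10 and 7, and EA3 had 9 and 5. The neutrophil-attracting chemokine Cxcl5 rose from 2.02 ± 1.15 CPM in DMSO to 72.3 ± 42.8 CPM in EA1, from 168 ± 38.1 CPM in DMSO to 979.6 ± 289 CPM in EA2 and from 272 ± 133 CPM in DMSO to 888 ± 362 CPM in EA3, with edgeR log2 fold changes of 4.97 (adjusted p = 2.49e-05), 2.52 (adjusted p = 0.000772) and 1.77 (adjusted p = 0.00524). The macrophage growth factor Csf1 rose by 1.35 (adjusted p = 0.0012), 2.13 (adjusted p = 5.98e-05) and 3.54 (adjusted p = 2.97e-06) in EA1, EA2 and EA3 (edgeR). The survival gene Bcl2l1 and the cytokines Lif and Csf2 fell in each line, so the targets did not move in 1 direction. These 3 genes were singled out after their values were seen. Targets of this kind respond to other factors as well, and this list was chosen with earlier results of these data known.

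**Figure D4:**
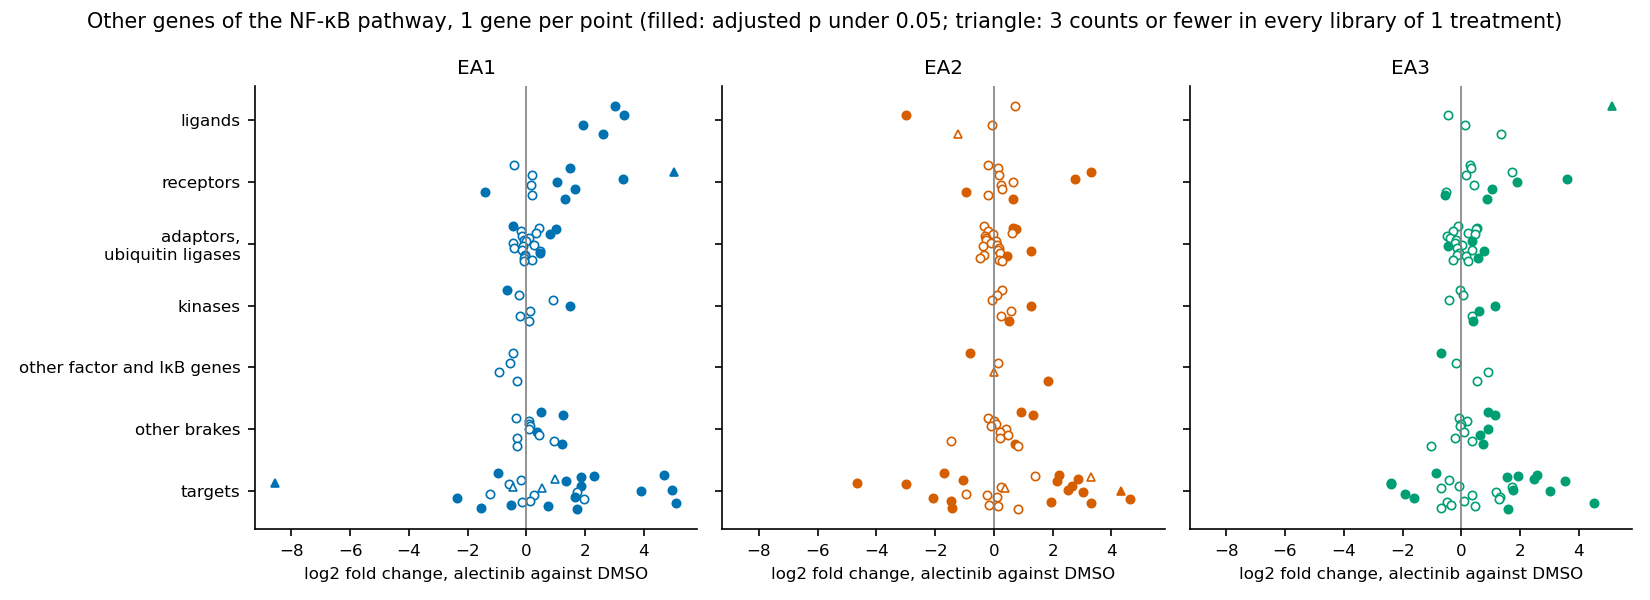
Log2 fold change of alectinib against DMSO (edgeR) for the 88 tested genes of the pathway other than the 10 members, by group and line, with filled symbols where the adjusted p was under 0.05 and triangles where 1 treatment had 3 reads or fewer in every library. The medians of adaptors and ligases lie between -0.045 and 0.089 and those of the kinases between 0.073 and 0.351, while receptors and targets spread widely on both sides of 0 and the 4 ligands lie above 0 in EA1.

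The daily ratios of each member were set beside those of every tested gene with an average log2 CPM of at least 3, over the 12 pairs of libraries. The most similar genes were Stx2 for Nfkb1 (Pearson r = 0.878), Fam84b for Nfkb2 (Pearson r = 0.937), Vps37c for Rela (Pearson r = 0.931), Dtna for Relb (Pearson r = 0.936), Rabac1 for Nfkbia (Pearson r = 0.947), Arl4c for Nfkbie (Pearson r = 0.949), Ypel3 for Nfkbiz (Pearson r = 0.863), Pttg1ip for Tnfaip3 (Pearson r = 0.929) and Rpap1 for Icam1 (Pearson r = 0.868). Birc3 is left out, as it had too few reads for a ratio on 3 of the EA1 days. The pairs share lines, days and normalization, and the best match among all genes searched is high by selection.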

How the data were processed

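RNA-seq libraries of murine EML4-ALK lines were analyzed from 1 deposited table of raw counts per gene symbol, which the authors made by checking reads with FastQC, trimming adapters with bbduk, mapping 2 × 151 base reads to mm10 with STAR and counting with its internal counter. The strand column and annotation release are not given in the sources used here. Rows named by date numbers (24, 0.129% to 0.201% of counts) name no gene and were left out. Samples were grouped by labelled line and treatment. Counts were tested with edgeR 4.0.16 (R 4.3.3) by the robust quasi-likelihood test, with TMM factors, filterByExpr and Benjamini-Hochberg adjustment over all genes tested. Blocks were line and day, since the labels give DMSO and alectinib libraries the same day. Their deviations from the group means correlated at -0.300 to 0.549. Line differences in DMSO had no day term. Named genes were all members, fixed pathway genes, the gene of smallest p per pathway group and line, and the gene with the most similar ratios. Members and lists were chosen with earlier results of these data known. The fits were also run on simulated counts with planted effects, a check of the procedure that does not bear on the calls made here. Promoters came from RefSeq (GRCm38.p6) and positions from GENCODE, which matched 55314 of the gene rows. Alternatives were DESeq2 1.42.0, other scalings, filters and blocks, each line alone, the day 7 libraries added, and each day left out. Depth was 5780062 to 11732401 counts per library.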

Additional observations from a re-analysis of the deposited data

Results flagged for a closer look

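Among 60 groups of 4 libraries (10 members in 6 groups), 5 held a library whose distance from its nearest neighbour exceeded Dixon's limit as a share of the group's range, where chance gives about 1 in 20, or 3. Nfkb1 was at 93.5 CPM in the EA1 DMSO library of day 5, below the other 3. Nfkb2 was at 102 CPM in the EA1 alectinib library of day 1, above the other 3, and at 133 CPM in the EA2 DMSO library of day 3. Rela was at 130.3 CPM in the EA1 DMSO library of day 3. Nfkbie was at 28.2 CPM in the EA3 alectinib library of day 5, above the other 3. The alectinib effect on Nfkbie also differed between the lines by the edgeR test with 2 degrees of freedom (adjusted p = 0.00248), being positive on every day in EA3 and negative on 3 of 4 days in EA2.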

How the results depend on the processing

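Each day is numbered as a replicate in its group, so leaving out a replicate leaves out a day in every line. The calls of Tnfaip3 in all 3 lines, of Nfkbia and Nfkbiz in EA2, and of Nfkb1, Nfkbie, Birc3 and Icam1 in EA3 kept their direction and stayed past the threshold without any 1 day. The number of members higher in EA1 was 1 instead of 2 without day 2 or 3, with all 26 libraries, with the line fitted alone, without the replicate block and at a log2 fold change of at least 1, and ranged from 1 to 2 over the days left out. The number lower in EA1 ranged from 0 to 1. Other settings added calls. In EA1, Nfkbia passed with DESeq2 (adjusted p = 0.0402) and Nfkbiz with library size alone (edgeR adjusted p = 0.0474). In EA3, Rela passed with library size alone, without the replicate block and with at least 10 counts in every library (edgeR adjusted p = 0.0138, 0.0286 and 0.0487). In EA2 the number higher was 3 to 4 over the days left out, 8 with the line fitted alone and 2 at a log2 fold change of at least 1. Between lines, 2 members (Nfkbie and Nfkbia) passed without the filter on low counts, 0 with all 26 libraries, and 0 to 1 over the days left out. For the change with days, DESeq2 called 1 member in EA1 and 2 in EA3, 1 passed in EA3 without the filter, and 0 to 1 did over the days left out. In DMSO, a minimum of 10 counts in every library removed Birc3 and gave 0 members higher in EA2 and 1 in EA3 than in EA1. Over the days left out, 0 to 1 were lower in EA2 than in EA1, 1 to 2 were higher in EA3 than in EA1, and 1 to 3 were higher in EA3 than in EA2.

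Without the replicate block the alectinib effect on Nfkbie differed between lines with an edgeR adjusted p of 0.00273, the difference between EA3 and EA1 no longer passed (edgeR adjusted p = 0.0675), and 1 member was higher in EA1. With the block added, the DMSO calls stayed past the threshold. The sign of several small effects, none past the threshold, turned with the setting. For Rela in EA1 the log2 fold change was -0.056 without the filter, -0.013 with DESeq2 and with its size factors, -0.076 with all 26 libraries, -0.039 with the line alone, -0.0056 without the replicate block and -0.16 to 0.15 over the days left out. Over the days left out, values ran from -0.48 to 0.033 for Relb, -0.12 to 0.22 for Map3k14 and -0.079 to 0.19 for Rcan1 in EA1, and from -0.17 to 0.055 for Chuk, -0.021 to 0.13 for Ikbkb and -0.39 to 0.068 for Nfkbib in EA3. Chuk in EA3 was 0.068 with library size alone, Ikbkb in EA3 -0.033 with all 26 libraries, and Il33 in EA3 0.037 without the replicate block. The causes were not tested. Nfkbie had 14 to 86 reads per library in EA1 and EA2, and Birc3 had 0 to 14 in EA1.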

Other observations

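The 2 libraries labelled EA3 day 7 correlated with the EA2 libraries of the same treatment at 0.943 to 0.977 for DMSO and 0.960 to 0.988 for alectinib, and with the EA3 libraries at 0.858 to 0.890 and 0.852 to 0.871. Their log2 ratios of alectinib to DMSO, from 1 pair with no replicate, were 1.72 for Nfkbia, 1.37 for Tnfaip3, 1.75 for Birc3, 1.68 for Icam1 and 1.08 for Nfkbiz. The ratio of Nfkbie was -1.90, while in the EA3 libraries of days 1 to 5 it was 1.99 to 2.33 and in the EA2 libraries 0.34, -0.37, -0.79 and -1.36 on days 1, 2, 3 and 5. Nfkb1 and Rela had 0.42 and 0.27, and Nfkb2 and Relb -0.28 and -0.47.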
